A study of Mus musculus with 12 samples.

Results

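The cytosolic heat shock proteins are described here by 10 transcripts, Hspa1a, Hspa1b, Hspa1l, Hspa8, Hspb1, Hspb8, Cryab, Dnajb1, Hsph1 and Hsp90aa1, which were chosen by gene symbol from the 45906 genes of the count table. All 10 passed the filter on low counts, as did 20155 genes in all. RNA of the whole spinal cord had been sequenced from 12 mice of 7 months of age on a C57BL/6 background, with 3 mice in each of 4 genotypes. Plekhg5+/+ mice carried neither alteration, Plekhg5-/- mice lacked Plekhg5, Plekhg5+/+ SOD1-G93A mice carried the human SOD1-G93A transgene, and Plekhg5-/- SOD1-G93A mice carried the transgene and lacked Plekhg5. Plekhg5 is a guanine nucleotide exchange factor that acts in autophagy in motoneurons, and SOD1-G93A mice are a model of amyotrophic lateral sclerosis. The transgenic line was the low copy line with slow disease progression, and the human gene in such mice is expressed far beyond motoneurons. Since whole tissue was sequenced, fewer cells of a type and less RNA per cell cannot be told apart.

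Heat shock proteins hold unfolded proteins and help them to refold or to be degraded. Hsp70 proteins bind and release clients in an ATP cycle that J proteins such as Dnajb1 start and nucleotide exchange factors such as Hsph1 reset, and Hsp90 takes over selected clients from Hsp70. Small heat shock proteins bind unfolded proteins without ATP and keep them soluble. Some of these proteins, such as Hspa8, are made at all times. Others, such as Hspa1a and Hspa1b, are made at low levels until heat shock factor Hsf1 binds heat shock elements in their promoters after heat, oxidative stress or an excess of unfolded protein. In SOD1-G93A mice the folding of mutant SOD1 protein is a burden on this system, and small heat shock proteins are known to be made by reactive astrocytes.

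The libraries held between 30415643 and 38743628 counts, and values are given as CPM, the counts of a gene per 1000000 counts of its library, after normalization of library sizes. Plekhg5 stood at 19.4 to 25.0 CPM in the 6 libraries labelled Plekhg5+/+ or Plekhg5+/+ SOD1-G93A and at 3.28 to 4.72 CPM in the other 6. Human SOD1 stood at 4421 to 5638 CPM in the libraries with the transgene and at 0.153 to 5.47 CPM in the others. The 4 Y-linked genes summed to 200, 210 and 218 CPM in Plekhg5+/+ and to 204, 0.0603 and 221 CPM in Plekhg5-/- mice. They summed to 207, 0.264 and 191 CPM in Plekhg5+/+ SOD1-G93A and to 203, 0.283 and 0.0259 CPM in Plekhg5-/- SOD1-G93A mice. Sex was thus not balanced over the genotypes. The Plekhg5+/+ group was not uniform. Its replicates 1 and 2 were both above the other 10 libraries for 890 of the 20155 genes, or 4.42% of them, and for 8 of the 10 heat shock transcripts. The heat shock transcripts in the comparisons with Plekhg5+/+ mice are therefore given with these 2 libraries and without them. Without them 1 mouse is left in that group, which is assumed to vary like the mice of the other genotypes, so that standard errors and p-values of that fit rest on the spread of those genotypes.

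RefSeq promoter windows of 300 bases on GRCm38.p6, from 250 bases before to 50 bases after a start site, were at hand for 7 of the 10 genes, in 9 windows. They were searched on both strands for a pair of heat shock element units facing each other, spelled GAANNTTC or TTCNNGAA, where each spelling is its own reverse complement and both may overlap. A pair was present in 15.1% of all 32851 windows of this length, and in the windows of Hspa1a, Hspa1b, Hspb1, Hspb8 and Hsph1. The windows of Hspa1l and Dnajb1 had no such letters. The stretches before the start site are shown for Hspa1a and Hspa1b, the genes with the largest differences between libraries, and for Hspb1. Hspb1 was highest in another library, Plekhg5+/+ SOD1-G93A replicate 1, although its levels fell in the same order over the Plekhg5+/+ replicates. The stretches cover chr17:34972157-34972306 on the minus strand, chr17:34959239-34959388 on the minus strand and chr5:135887769-135887918 on the plus strand, 5′ to 3′, with the pairs in capitals.
Hspa1a: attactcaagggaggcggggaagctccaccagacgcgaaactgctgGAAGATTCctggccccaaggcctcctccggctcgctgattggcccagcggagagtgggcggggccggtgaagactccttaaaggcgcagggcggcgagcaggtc
Hspa1b: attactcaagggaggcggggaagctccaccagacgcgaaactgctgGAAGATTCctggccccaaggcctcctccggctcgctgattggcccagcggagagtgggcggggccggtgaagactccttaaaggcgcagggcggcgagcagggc
Hspb1: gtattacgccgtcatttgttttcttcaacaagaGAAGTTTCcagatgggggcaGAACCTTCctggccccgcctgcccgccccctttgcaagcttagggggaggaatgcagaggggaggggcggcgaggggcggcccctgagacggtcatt
The stretches of Hspa1a and Hspa1b had the same letter at 149 of 150 positions, and the pair began 104 bases before the start site in both. Hspb1 had a pair that began 117 bases before its start site and another that began 97 bases before it. Hsph1, whose transcripts begin at several sites, was the only one of these genes with 3 units in a row, spelled TTCNNGAANNTTC, which with its reverse complement GAANNTTCNNGAA was present in 0.603% of all windows. Stretches of 30 bases around its elements are shown, from chr5:149636347-149636376 before and chr5:149636287-149636316 after the upstream start site of its 2 windows, on the minus strand.
Hsph1 before: agaatctTTCTCGAAggctcgagaagaagg
Hsph1 after: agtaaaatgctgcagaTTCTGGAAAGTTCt
In Hspb8 the pair lay 2 to 9 bases after the start site. These letters are a description of the windows and not of binding.

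**Figure D1:**
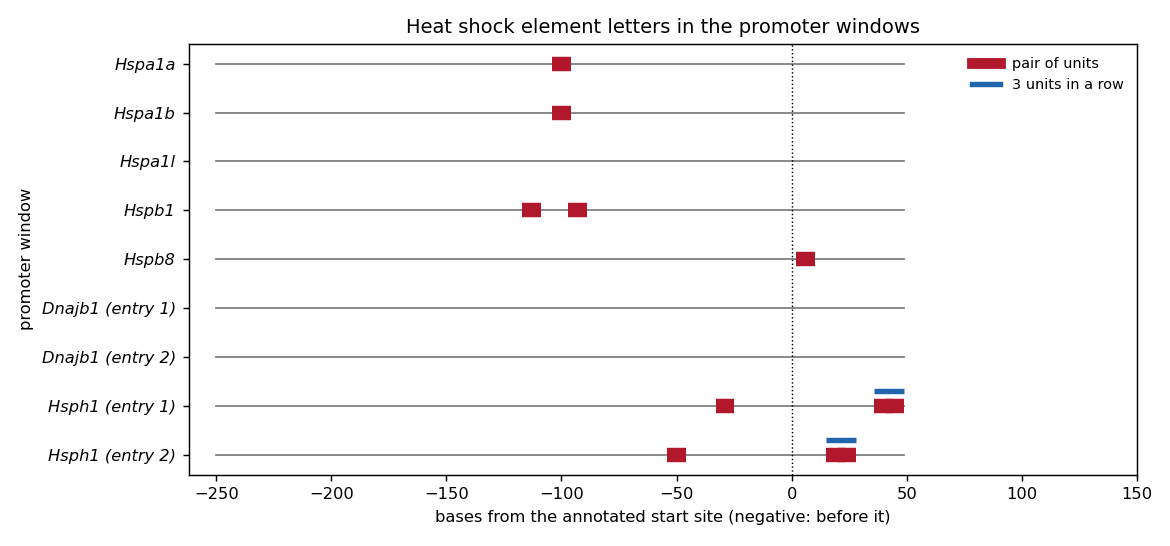
Positions of heat shock element letters in the 9 promoter windows of 7 genes, in bases from the annotated start site (x axis); grey lines are the windows, red blocks are pairs of units and blue blocks are 3 units in a row. Hspa1a and Hspa1b have a pair at the same place, 104 bases before the start site, and no letters are found in the windows of Hspa1l and Dnajb1.

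The heat shock transcripts differed widely in level. Per kilobase of exon, in CPM per kilobase, the means of Plekhg5+/+ mice were 881 ± 128 (SD, n = 3) for Hspa8, the constitutive Hsp70, and 478 ± 60.7 for Hsp90aa1, the stress-responsive cytosolic Hsp90. Cryab, a small heat shock protein of glia and muscle also called alpha B-crystallin, followed with 156 ± 42.5 and Hsph1, an Hsp110 that drives nucleotide exchange on Hsp70, with 124 ± 27.6, which did not differ beyond their spread. The small heat shock proteins Hspb1 with 35.1 ± 9.55 and Hspb8 with 35.1 ± 5.96, and Hspa1b with 26.2 ± 19.5, Dnajb1 with 22.9 ± 7.02 and Hspa1a with 22.2 ± 15.0, formed a group within each other's spread. Hspa1l, an Hsp70 known mainly from testis, was lowest with 2.06 ± 1.10. In Plekhg5+/+ SOD1-G93A mice the first 4 kept this order, and Hspa1a with 3.57 ± 0.493 and Hspa1b with 3.04 ± 0.831 lay under Dnajb1 with 13.7 ± 1.71 CPM per kilobase.

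Hspa1a, the stress-inducible Hsp70 (chromosome 17 from 34969359 to 34972156, minus strand), stood at 99.8, 69.8 and 16.8 CPM in replicates 1 to 3 of Plekhg5+/+, at 8.61, 9.10 and 19.6 CPM in Plekhg5-/-, at 9.41, 8.98 and 11.6 CPM in Plekhg5+/+ SOD1-G93A, and at 18.5, 16.2 and 11.7 CPM in Plekhg5-/- SOD1-G93A mice. Hspa1b, its near-identical copy (chromosome 17 from 34956429 to 34959238, minus strand), stood at 125, 79.2 and 16.2 CPM, at 6.66, 7.52 and 18.4 CPM, at 8.45, 6.26 and 10.9 CPM, and at 20.3, 17.3 and 9.05 CPM in the same order of genotypes. Both genes were far higher in Plekhg5+/+ replicates 1 and 2 than in any other library, whereas replicate 3 lay within the range of the 9 libraries of the other genotypes. Against the median of those 9 libraries, Hspa1a was 8.63 and 6.03 times and Hspa1b 13.9 and 8.75 times as high in replicates 1 and 2, and 1.45 and 1.79 times as high in replicate 3. Hspa1l (chromosome 17 from 34972703 to 34979228, plus strand) stood at 7.30, 5.55 and 2.09 CPM in Plekhg5+/+, at 0.824, 0.949 and 1.63 CPM in Plekhg5-/-, at 1.42, 1.07 and 1.02 CPM in Plekhg5+/+ SOD1-G93A, and at 1.87, 1.82 and 0.997 CPM in Plekhg5-/- SOD1-G93A mice. All 3 Plekhg5+/+ libraries were above the other 9 for Hspa1l, the third by little.

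The 3 genes form a cluster and share sequence, and the authors counted a read with several matches as a fraction for each. Of all stretches of 75 bases, the read length, in the GENCODE transcripts of Hspa1a, 54.2% also occurred in another gene, and 55.8% of those of Hspa1b and 7.09% of those of Hspa1l did. Counts were not whole numbers in 10 libraries for Hspa1a, in 12 for Hspa1b and in 11 for Hspa1l, so that the share of each of the first pair is uncertain. Their sum does not depend on how reads were split among them, and it was 232, 154 and 35.1 CPM in Plekhg5+/+, 16.1, 17.6 and 39.5 CPM in Plekhg5-/-, 19.3, 16.3 and 23.5 CPM in Plekhg5+/+ SOD1-G93A, and 40.7, 35.3 and 21.7 CPM in Plekhg5-/- SOD1-G93A mice. The sum of Plekhg5+/+ replicate 3 was thus below that of 1 Plekhg5-/- and 2 Plekhg5-/- SOD1-G93A mice. The ratio of Hspa1a to Hspa1b was 0.796 and 0.881 in Plekhg5+/+ replicates 1 and 2 and 0.911 to 1.43 in the other libraries. Hspa1l made up 3.14% to 7.38% of the sum.

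**Figure D2:**
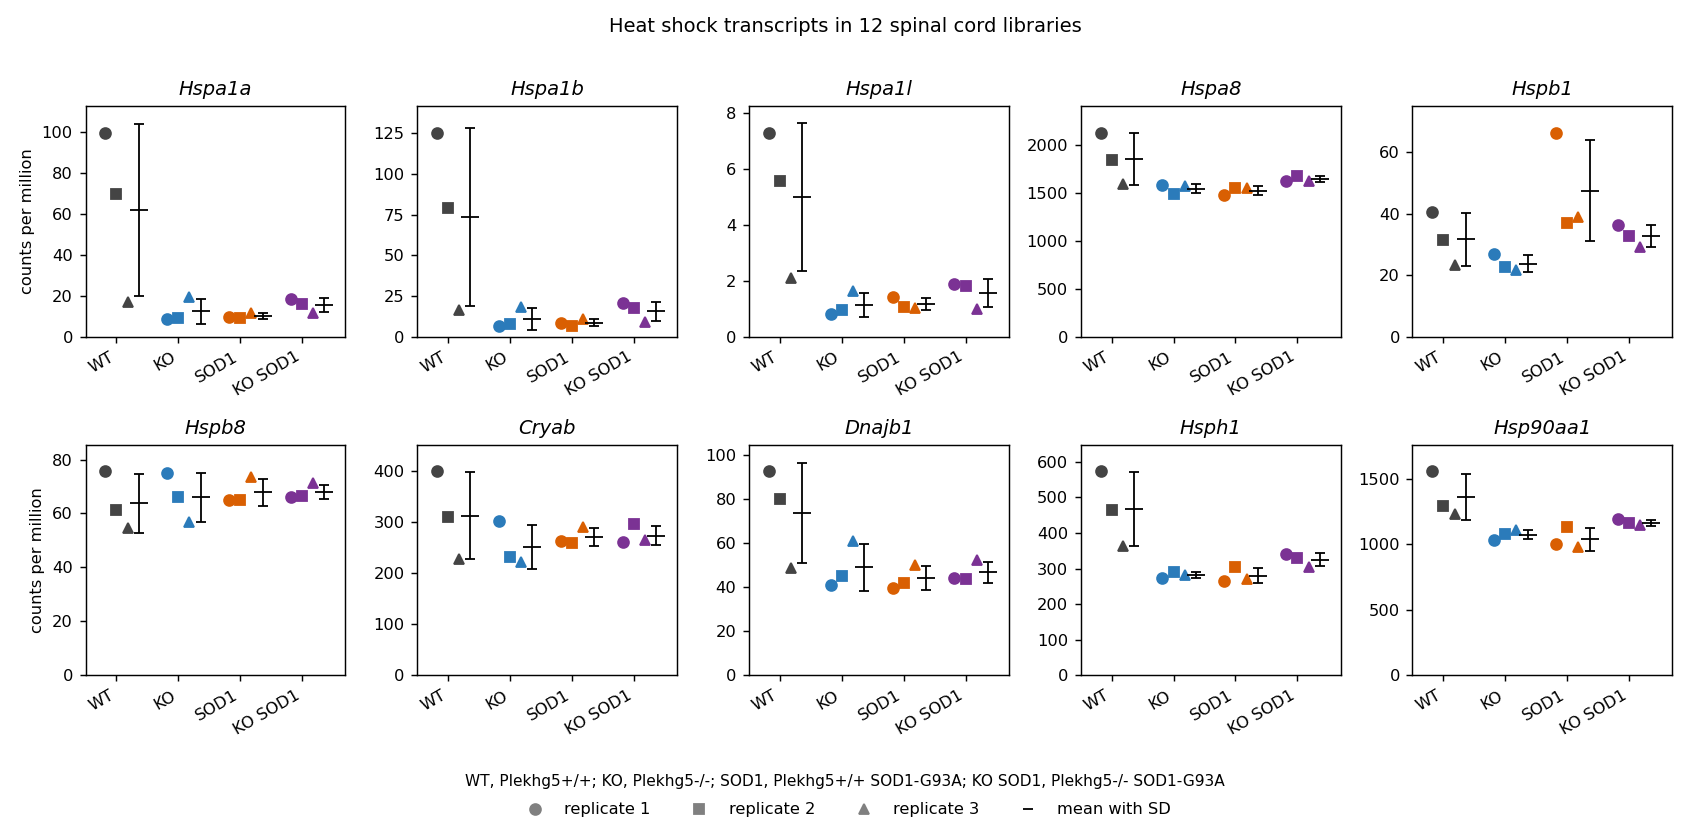
Level in CPM (y axis, from 0) of the 10 heat shock transcripts in the 3 mice of each of the 4 genotypes (x axis), with the symbol giving the replicate and the black bar the mean with SD. Plekhg5+/+ replicates 1 and 2 are the highest 2 libraries for 8 of the genes, with Hspa1b at 125 and 79.2, and Hspb1 is highest in Plekhg5+/+ SOD1-G93A replicate 1 with 66.5.

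Hspa8, the constitutive Hsp70 (chromosome 9 from 40801276 to 40805202, plus strand), stood at 2129, 1846 and 1589 CPM in Plekhg5+/+ and at 1473 to 1676 CPM in the other 9 libraries. Dnajb1, the J protein that recruits Hsp70 to aggregated protein (chromosome 8 from 83608175 to 83612653, plus strand), stood at 92.8, 80.0 and 48.8 CPM in Plekhg5+/+, at 41.2, 45.0 and 61.0 CPM in Plekhg5-/-, at 39.9, 42.1 and 50.3 CPM in Plekhg5+/+ SOD1-G93A, and at 44.3, 43.8 and 52.3 CPM in Plekhg5-/- SOD1-G93A mice. For these 2 genes replicate 3 of Plekhg5+/+ lay among the libraries of the other genotypes. Hsph1 (chromosome 5 from 149616843 to 149636498, minus strand) stood at 574, 464 and 365 CPM in Plekhg5+/+, at 272, 290 and 283 CPM in Plekhg5-/-, at 264, 305 and 272 CPM in Plekhg5+/+ SOD1-G93A, and at 341, 330 and 305 CPM in Plekhg5-/- SOD1-G93A mice. Hsp90aa1 (chromosome 12 from 110691036 to 110696395, minus strand) stood at 1559, 1291 and 1235 CPM in Plekhg5+/+, at 1037, 1076 and 1110 CPM in Plekhg5-/-, at 1003, 1136 and 977 CPM in Plekhg5+/+ SOD1-G93A, and at 1193, 1162 and 1147 CPM in Plekhg5-/- SOD1-G93A mice. For Hsph1 and Hsp90aa1 all 3 Plekhg5+/+ mice were above all 9 others, and the Plekhg5-/- SOD1-G93A mice were above all 3 Plekhg5-/- mice.

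Of the small heat shock proteins, Cryab had both Plekhg5+/+ replicates 1 and 2 above the other 10 libraries, and Hspb1 and Hspb8 did not. Hspb1, also called Hsp25 in mice and known to be made by reactive astrocytes and injured neurons (chromosome 5 from 135887919 to 135889563, plus strand), stood at 40.4, 31.5 and 23.2 CPM in Plekhg5+/+, at 26.8, 22.6 and 21.8 CPM in Plekhg5-/-, at 66.5, 37.0 and 39.0 CPM in Plekhg5+/+ SOD1-G93A, and at 36.3, 32.7 and 29.2 CPM in Plekhg5-/- SOD1-G93A mice. The 3 mice of Plekhg5-/- SOD1-G93A were above the 3 of Plekhg5-/- and below the 3 of Plekhg5+/+ SOD1-G93A, and the Plekhg5+/+ mice overlapped with all other groups. Gfap, the intermediate filament of astrocytes that rises in gliosis, was also highest in Plekhg5+/+ SOD1-G93A replicate 1, with 5054 CPM against 2825 and 2897 CPM in replicates 2 and 3, 1333 to 1828 CPM in Plekhg5+/+, 1651 to 2479 CPM in Plekhg5-/- and 2300 to 2363 CPM in Plekhg5-/- SOD1-G93A mice. The part of astrocytes in the level of Hspb1 was not tested. Hspb8, a partner of Bag3 in the degradation of unfolded protein by autophagy (chromosome 5 from 116408491 to 116422864, minus strand), stood at 54.5 to 75.6 CPM in Plekhg5+/+, and the other 9 libraries all lay between these values, from 57.0 CPM upwards. Cryab (chromosome 9 from 50745951 to 50756636, plus strand) stood at 399, 309 and 228 CPM in Plekhg5+/+ and at 222 to 301 CPM in the other libraries.

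Plekhg5+/+ SOD1-G93A mice were compared with Plekhg5+/+ mice for the effect of the transgene (edgeR quasi-likelihood test over 20155 genes, p-values adjusted with the Benjamini-Hochberg method). Of the 10 transcripts, 3 were lower at an adjusted p under 0.05 and 0 were higher, where 76 of all genes, or 0.377%, were lower and 498, or 2.47%, changed in either direction. Hsph1 fell by 0.74 on the log2 scale (SE 0.12, adjusted p = 0.0146), Hspa1l by 2.09 (SE 0.42, adjusted p = 0.0260) and Hsp90aa1 by 0.39 (SE 0.08, adjusted p = 0.0338). The log2 fold changes of Hspa1a, with -2.64 (SE 0.59, adjusted p = 0.0537), and of Hspa1b, with -3.10 (SE 0.74, adjusted p = 0.0678), were larger in size and did not pass. Their sum with Hspa1l had -2.83 (SE 0.66, adjusted p = 0.0639). Dnajb1 had -0.74 (adjusted p = 0.0925), Hspa8 -0.28 (adjusted p = 0.0958), Cryab -0.21 (adjusted p = 0.555), Hspb8 0.09 (adjusted p = 0.741) and Hspb1 0.58 (adjusted p = 0.211). The median log2 fold change was -0.56 over the 10 transcripts and -0.000994 over all genes. In 6 of the 10 all 3 mice with the transgene were below all 3 without it, which held for 9.02% of all genes.

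These calls depended on which Plekhg5+/+ libraries entered the fit. Replicates 1 and 2 were singled out for their high heat shock transcripts, so leaving them out was bound to lower the Plekhg5+/+ mean of those transcripts. Without replicate 1 or without replicate 2, 0 of the 10 transcripts were called, and without replicate 3 there were 7, namely Hspa1a, Hspa1b, Hspa1l, Hspa8, Dnajb1, Hsph1 and Hsp90aa1. Of all genes, 498 were called with 12 libraries and 2 without replicate 2, so the loss of calls there was not particular to these transcripts. With each library of any genotype left out in turn, the number of all genes called ranged from 2 to 771. The 771 came without Plekhg5+/+ SOD1-G93A replicate 2. With totals that vary so widely, the counts of 0 and 7 transcripts are not read as particular to these transcripts. Without both replicates 1 and 2 of Plekhg5+/+, the log2 fold changes were -0.74 (SE 0.43) for Hspa1a, -0.92 (SE 0.60) for Hspa1b and -0.83 (SE 0.41) for Hspa1l. Dnajb1 had -0.14 (SE 0.20), Hspa8 -0.06 (SE 0.07), Hsph1 -0.38 (SE 0.10, adjusted p = 0.494 by edgeR) and Hsp90aa1 -0.25 (SE 0.09, adjusted p = 0.516 by edgeR), with 1 Plekhg5+/+ mouse in the fit. In that fit Hspb1 had 1.03 (SE 0.31, adjusted p = 0.494), and with Plekhg5+/+ SOD1-G93A replicate 1 left out of the 12 libraries it had 0.26 (adjusted p = 0.589). Without Plekhg5+/+ SOD1-G93A replicate 1, or without its replicate 3, 1 transcript was called, which was Hsph1. DESeq2, run with the fold-change prior that the study's methods name, called the same 7 transcripts as edgeR without replicate 3, all lower, where it called 1.94% of all genes as lower.

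**Figure D3:**
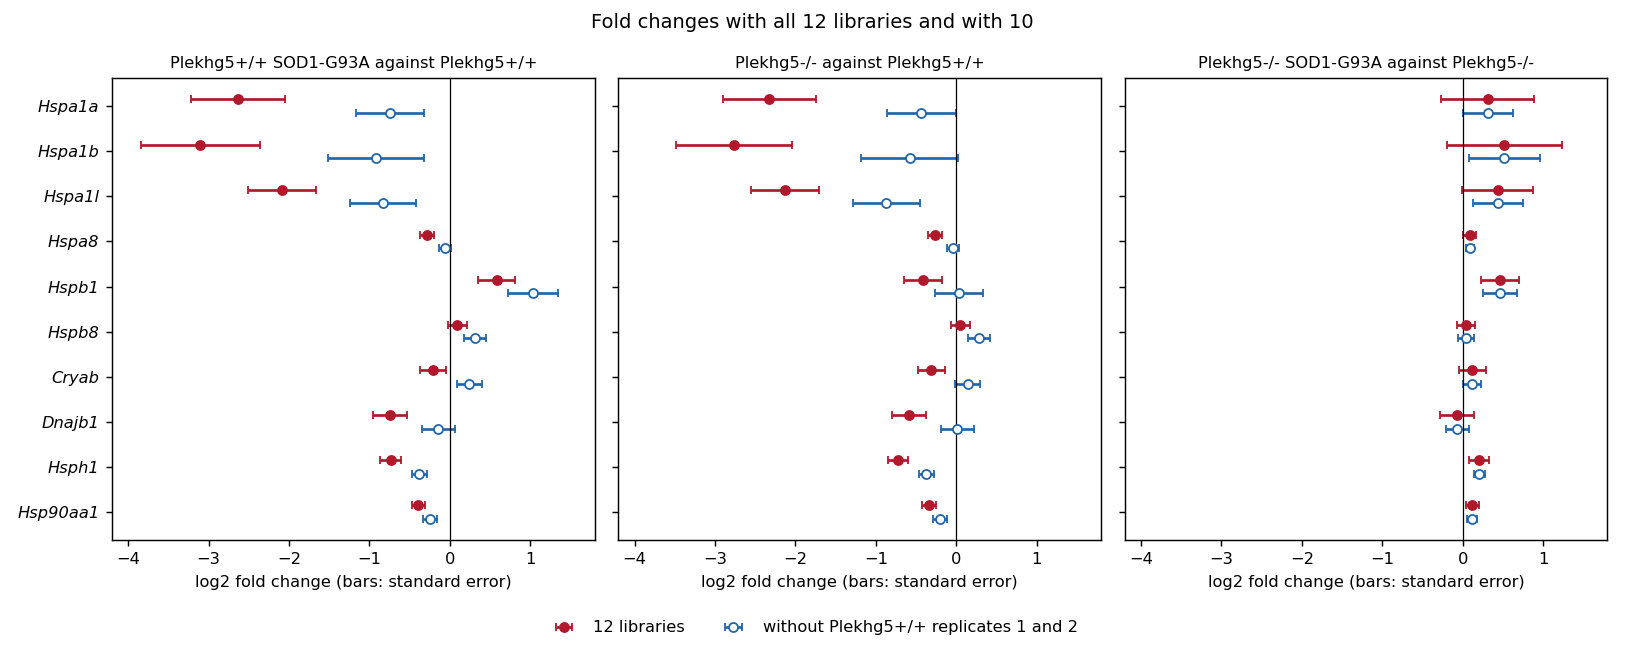
Log2 fold changes (x axis) of the 10 heat shock transcripts (y axis) in 3 comparisons, with standard errors as bars, from all 12 libraries (filled) and without Plekhg5+/+ replicates 1 and 2 (open). In both comparisons with Plekhg5+/+ the Hspa1 genes move from between -3.10 and -2.09 to between -0.92 and -0.43, and the comparison within Plekhg5-/- mice stays between -0.07 and 0.52.

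Plekhg5-/- mice were compared with Plekhg5+/+ mice for the effect of Plekhg5 loss alone. This comparison has the same Plekhg5+/+ libraries as the one above, and its values are not independent of it. Of the 10 transcripts 0 were called by edgeR, where 6 of all genes, or 0.0298%, were, and 7 had an unadjusted p under 0.05, as 1073 of all genes had. The log2 fold changes were -2.33 (SE 0.58, adjusted p = 0.713) for Hspa1a, -2.77 (SE 0.72, adjusted p = 0.716) for Hspa1b, -2.13 (SE 0.42, adjusted p = 0.300) for Hspa1l and -0.73 (SE 0.12, adjusted p = 0.138) for Hsph1. DESeq2 with the prior called these 4 transcripts as lower, where 0.0993% of all genes were. In 4 of the 10 transcripts, Hspa1l, Hspa8, Hsph1 and Hsp90aa1, all 3 Plekhg5-/- mice were below all 3 Plekhg5+/+ mice, which held for 4.03% of all genes. Without replicates 1 and 2 of Plekhg5+/+, the log2 fold change of Hspa1a was -0.43 (SE 0.43), that of Hspa1l -0.87 (SE 0.41) and that of Hsph1 -0.37 (SE 0.10, adjusted p = 0.999).

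The difference between Plekhg5-/- SOD1-G93A and Plekhg5-/- mice is taken between groups without these 2 libraries, although they enter the estimate of the spread. Between Plekhg5-/- SOD1-G93A and Plekhg5-/- mice 0 of the 10 transcripts were called by edgeR, where 1 gene, or 0.00496%, was, and 0 had an unadjusted p under 0.05. DESeq2 with the prior also called 0 of the 10, beside 0.196% of all genes. The log2 fold changes lay between -0.07 for Dnajb1 and 0.52 for Hspa1b, with 0.46 (SE 0.23, adjusted p = 0.950) for Hspb1, 0.21 (SE 0.12, adjusted p = 0.950) for Hsph1 and 0.12 (SE 0.08, adjusted p = 0.950) for Hsp90aa1. In Hspa8, Hspb1, Hsph1 and Hsp90aa1 all 3 mice with the transgene were above all 3 without it, which held for 7.26% of all genes. In Plekhg5-/- SOD1-G93A against Plekhg5+/+ SOD1-G93A mice 0 of the 10 were called by edgeR and by DESeq2 with the prior, where edgeR called 7 genes, or 0.0347%, and DESeq2 0.587%. Hspb1 was the only transcript with an unadjusted p under 0.05, and its log2 fold change of -0.54 (SE 0.23, adjusted p = 0.555 by edgeR) did not pass. The other 9 lay between 0.00 for Hspb8 and 0.86 for Hspa1b.

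Whether the transgene acted differently with and without Plekhg5 was tested as an interaction, in which all 4 genotypes enter. Of the 10 transcripts 0 were called by edgeR, which called 0 of all genes, or 0%, while 7 had an unadjusted p under 0.05, as 1824 of all genes had. The interaction was 0.95 for Hsph1 (SE 0.18, adjusted p = 0.338 by edgeR) and 0.51 for Hsp90aa1 (SE 0.12, adjusted p = 0.338 by edgeR) on the log2 scale, and without Plekhg5+/+ replicates 1 and 2 it was 0.59 and 0.37. DESeq2 with the prior called Hspa1a, Hspa1b, Hspa1l, Hsph1 and Hsp90aa1, all above 0, where it called 0.3% of all genes above 0. Directions in single mice were taken against group means of log2 CPM. In 5 of the 10 transcripts all mice with the transgene were below their controls' mean with Plekhg5 and above it without Plekhg5. This held for 5.55% of all genes. In 5 of the 10 all mice without Plekhg5 were below their controls' mean without the transgene and above it with the transgene. This held for 5.44% of all genes. Averaged over both Plekhg5 genotypes, the transgene had a log2 fold change of 0.52 for Hspb1 (SE 0.16, adjusted p = 0.152 by edgeR), and 0 of the 10 transcripts were called where 1.22% of all genes were.

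Other chaperones, in 8 lists with 56 genes tested, showed where the difference of Plekhg5+/+ replicates 1 and 2 extended. These 2 libraries were above the other 10 for 18 of the 56, beside 4.42% of all genes. Among them were 5 of 8 genes of Hsp90 and its co-chaperones, 5 of 9 other J proteins, 3 of 6 chaperones of the endoplasmic reticulum and mitochondria, 2 of 10 genes of nucleotide exchange and chaperone-assisted degradation, 2 of 6 other Hsp70 and Hsp110 genes, 1 of 5 heat shock factors, 0 of 8 subunits of the TRiC chaperonin and 0 of 4 other small heat shock proteins. Between Plekhg5+/+ SOD1-G93A and Plekhg5+/+ mice edgeR called 5 of the 56, of which 4 fell, where 2.47% of all genes changed and 0.377% fell. Without Plekhg5+/+ replicates 1 and 2 it called 0 of them, as of all genes. Chordc1, a co-chaperone of Hsp90, fell by 0.62 on the log2 scale (adjusted p = 0.0206), from 135, 118 and 89.8 CPM to 74.0, 78.4 and 71.1 CPM. The J proteins Dnaja4 and Dnaja1 fell by 0.46 (adjusted p = 0.0316) and 0.39 (adjusted p = 0.0424), and Hsf1, the factor that binds heat shock elements, fell by 0.30 (adjusted p = 0.0264). Hspb6, a small heat shock protein, rose by 0.77 (adjusted p = 0.0149), from 10.7, 9.54 and 11.2 CPM to 21.9, 14.9 and 17.0 CPM, with replicate 1 highest as in Hspb1. Without the 2 libraries the log2 fold changes were -0.27 for Chordc1, -0.25 for Dnaja4, -0.17 for Dnaja1, -0.23 for Hsf1 and 0.68 for Hspb6 (adjusted p = 0.494 to 0.532 by edgeR). In each of the other 5 comparisons edgeR called 0 of the 56. In the lists without a call, the largest log2 fold changes were those of Hspa5, the Hsp70 of the endoplasmic reticulum, with -0.86 (adjusted p = 0.0639), Bag3, an exchange factor of Hsp70, with -0.38 (adjusted p = 0.107), Hspa4l, an Hsp110, with -0.37 (adjusted p = 0.101), and Cct4, a subunit of TRiC, with -0.18 (adjusted p = 0.315).

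**Figure D4:**
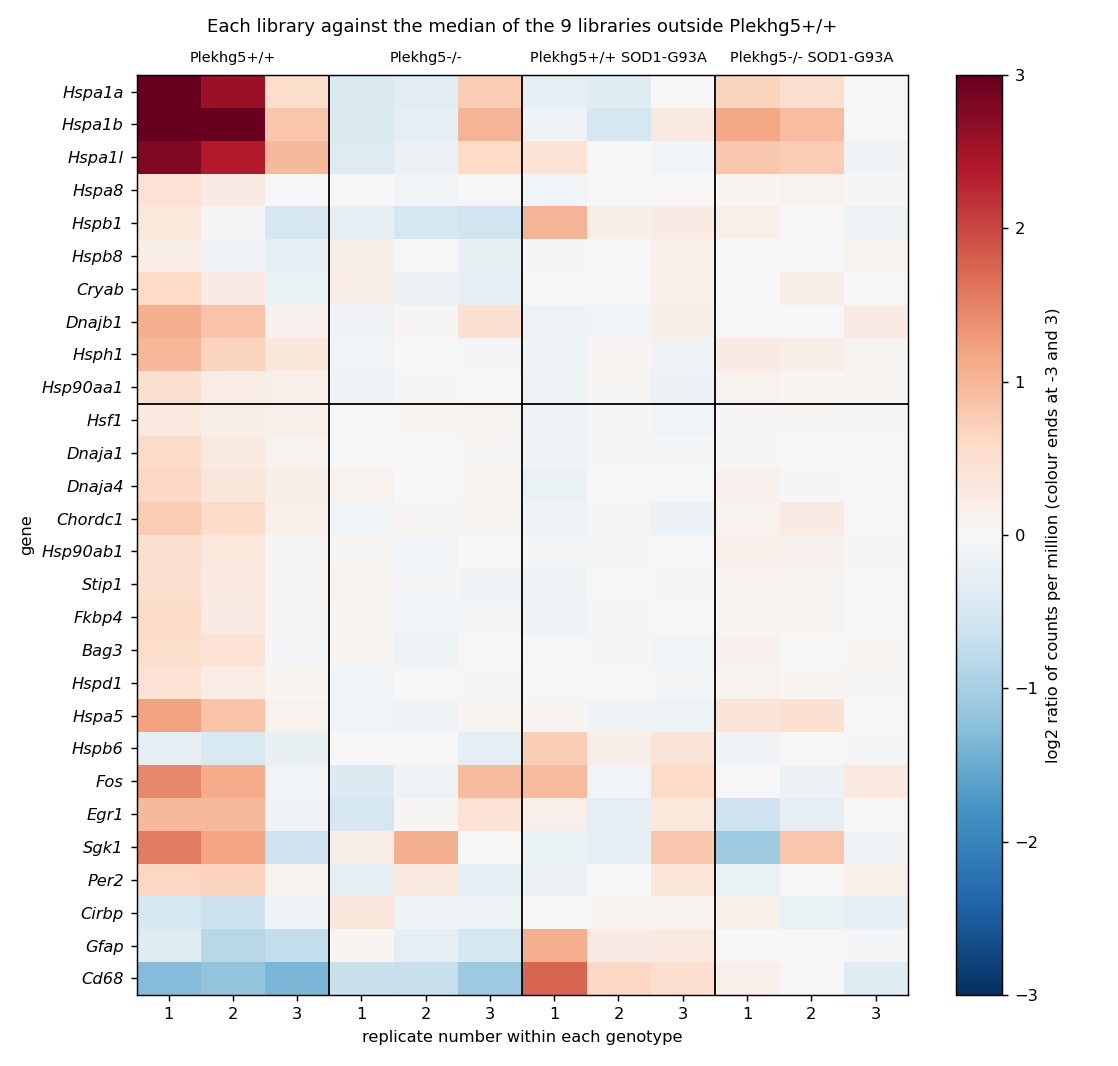
Log2 ratio of CPM in each of the 12 libraries (columns, by genotype and replicate) to the median of the 9 libraries outside Plekhg5+/+, for the 10 heat shock transcripts (upper block) and 18 other genes (lower block, chosen after their values were seen). Plekhg5+/+ replicates 1 and 2 are high for chaperones and for Fos and Sgk1 and low for Cirbp, and Plekhg5+/+ SOD1-G93A replicate 1 is high for Hspb1, Hspb6, Gfap and Cd68.

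Other transcripts moved with the 2 libraries. They were above the other 10 libraries for 4 of 11 immediate early genes, which follow neuronal activity or injury, for 4 of 7 glucocorticoid-responsive genes and for 2 of 12 circadian clock genes. Per1 is in the last 2 lists and is counted in each. Summed, the immediate early genes stood at 276 and 260 CPM in replicates 1 and 2 and at 164 to 248 CPM in the other 10 libraries. The glucocorticoid-responsive genes stood at 851 and 749 CPM in replicates 1 and 2 and at 305 to 580 CPM in the others. Cirbp, an RNA-binding protein made more in the cold, was lowest in the same 2 libraries with 37.3 and 34.1 CPM, against 45.2 to 67.4 CPM. Rbm3, the other cold-inducible gene listed, was not. It stood at 60.7 and 53.3 CPM there, within the 52.8 to 79.9 CPM of the other 10 libraries. Markers of other tissue also differed. The 6 Schwann cell markers summed to 413, 445 and 194 CPM in Plekhg5+/+, 200 to 251 CPM in Plekhg5-/-, 199 to 330 CPM in Plekhg5+/+ SOD1-G93A and 446 to 631 CPM in Plekhg5-/- SOD1-G93A mice, and the 8 skeletal muscle markers summed to 3.68 and 5.97 CPM in replicates 1 and 2 and to 154 CPM in replicate 3 of Plekhg5+/+. Astrocyte markers summed to 6214 to 6376 CPM in Plekhg5+/+ and 7572 to 10787 CPM in Plekhg5+/+ SOD1-G93A mice, and microglia markers to 341 to 386 CPM and 638 to 1196 CPM, with 9 of the 10 called as higher. Without Plekhg5+/+ replicates 1 and 2 none of the 10 was called by edgeR, and their log2 fold changes lay between 0.50 and 2.45. Neuronal markers had log2 fold changes under 0 in Plekhg5+/+ SOD1-G93A against Plekhg5+/+ mice, as most heat shock transcripts had. The 8 pan-neuronal markers summed to 10062, 9893 and 9934 CPM in Plekhg5+/+ and 9371 to 9812 CPM in Plekhg5-/- mice. They summed to 7712 to 9271 CPM in Plekhg5+/+ SOD1-G93A and 8528 to 9748 CPM in Plekhg5-/- SOD1-G93A mice. The sums of Plekhg5+/+ mice were thus above those of every other genotype. Between Plekhg5+/+ SOD1-G93A and Plekhg5+/+ mice all 8 had a log2 fold change under 0 (median -0.14), and edgeR called 0 of them. The 8 motoneuron markers summed to 441 to 478 CPM in Plekhg5+/+ and 345 to 452 CPM in Plekhg5+/+ SOD1-G93A mice, and all 8 were under 0 (median -0.34) with 1, Chodl, called as lower. Without Plekhg5+/+ replicates 1 and 2 the medians were -0.16 and -0.32. No listed marker of these cell types was at 0 in any library. The part of any of them in the heat shock transcripts was not tested. Without the 4 libraries with over 20 CPM of muscle markers 5 of the 10 transcripts were called as lower in Plekhg5+/+ SOD1-G93A against Plekhg5+/+ mice, where 41 of all genes were. Plekhg5+/+ replicate 3 is 1 of these 4 libraries, so that only replicates 1 and 2 of that group entered, and muscle and heat shock levels cannot be told apart there.

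The gene most like each heat shock transcript was found by the Pearson correlation of log2 CPM after the mean of each genotype was removed, over 12 libraries. For Hspa1a and Hspa1b it was Xbp1, a transcription factor of the unfolded protein response (0.942 and 0.934), and for Hspa1l Sec61a1, a subunit of the channel into the endoplasmic reticulum (0.952). Over the 10 libraries other than Plekhg5+/+ replicates 1 and 2 the values were 0.915, 0.907 and 0.935. The genotype means removed were still those of all 12 libraries, so these values are not free of the 2 libraries. For Dnajb1 it was Gab1 (0.947), for Cryab Klhl2 (0.971) and for Hspb8 Pkig (0.971). For Hspa8, Hspb1 and Hsp90aa1 it was a gene with which they share sequence, namely Gm15459 (0.993), Hsp25-ps1 (0.982) and Gm5844 (0.989). Of the stretches of 75 bases in the transcripts of these 3 genes, 30.2%, 46.4% and 22.1% also occurred in that gene, so that reads may have been counted in part for both. For Hsph1 it was Gm15542 (0.956), and 0 of its stretches occurred in another gene. These correlations describe libraries prepared in the same way and are given without a test.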

How the data were processed

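The authors trimmed reads of poly-A RNA (single-end, 75 bases, strand-specific) with Cutadapt 2.4, mapped them to GRCm38.p6 and the cDNA of human SOD1 with STAR 2.7.2b, and obtained counts per RefSeq gene with featureCounts 1.6.4. Reads with several matches or on several genes were counted as fractions, so that the deposited values are expected counts without normalization. Counts were rounded, genes were filtered with filterByExpr at its defaults, and the 4 genotypes were fitted together in R 4.3.3 with edgeR 4.0.16 (TMM, robust quasi-likelihood, Benjamini-Hochberg threshold 0.05). CPM are TMM-normalized, and log2 CPM have a prior count of 2. The mice are the replicates. The same replicate number stands for different mice, and of 18 pairs with the same number 5 deviated together (correlation over 0.1), so that numbers were not used as pairs. DESeq2 1.42.0, limma 3.58.1, other filters and scalings, and each library left out in turn were alternatives.

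The transcripts, gene lists and tests were chosen with earlier results of these data known. Genes named were the 10 transcripts, genes of each list called in any comparison or else the largest change, the first gene or summed level of marker lists, and the gene most like each transcript. Fos, Sgk1, Cd68 and the other genes of the heat map were chosen after their values were seen. Plots were made with matplotlib 3.10.9.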

Additional observations from a re-analysis of the deposited data

Results flagged for a closer look

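In several heat shock transcripts the transgene went with opposite directions in the presence and absence of Plekhg5, taken against group means of log2 CPM. All 3 Plekhg5+/+ SOD1-G93A mice were below the mean of Plekhg5+/+ mice. All 3 Plekhg5-/- SOD1-G93A mice were above the mean of Plekhg5-/- mice. This was so for Hspa1a, Hspa8, Cryab, Hsph1 and Hsp90aa1, or 5 of the 10, and for 5.55% of all genes. In CPM it was not so for Hspa1a, where Plekhg5-/- SOD1-G93A replicate 3 had 11.7 CPM against a Plekhg5-/- mean of 12.4 CPM. Against means of log2 CPM the loss of Plekhg5 also went with opposite directions, with all mice lower without the transgene and all higher with it. This was so for Hspa1a, Hspa1b, Hspa8, Hsph1 and Hsp90aa1, and for 5.44% of all genes. The difference itself is the interaction on the log2 scale, which is the same value for both views. It was 2.95 for Hspa1a, 3.62 for Hspa1b, 0.37 for Hspa8, 0.33 for Cryab, 0.95 for Hsph1 and 0.51 for Hsp90aa1. By edgeR none of these 6 passed after adjustment over all genes (adjusted p = 0.338 to 0.653), and the mean of Plekhg5+/+ mice, which enters each, contains replicates 1 and 2. Without these 2 libraries the interaction was 1.06 for Hspa1a, 1.44 for Hspa1b, 0.15 for Hspa8, -0.12 for Cryab, 0.59 for Hsph1 and 0.37 for Hsp90aa1.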

How the results depend on the processing

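The deposited counts limit what can be said. Of the 3 Plekhg5+/+ mice, 2 are above the other 10 libraries for 8 of the 10 heat shock transcripts, and Hspa1a and Hspa1b share reads. Over all genes the split is another. The sample weights of limma voom, lower for libraries further from their group, were 0.396, 1.17 and 1.20 in Plekhg5+/+ replicates 1 to 3. Plekhg5-/- replicate 1 had 0.324. Of the values of single transcripts under alternatives with all 12 libraries, 605 kept their direction and their side of the threshold, 37 passed it only under the alternative, 3 passed it only in the reported fit and 3 turned in sign. Under alternatives without several libraries these were 137, 3, 7 and 13. Where a value changed, the cause was not tested unless fewer libraries or genes entered.

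DESeq2 without and with the fold-change prior called 7 and 7 of the 10 transcripts and 1159 and 1200 genes in Plekhg5+/+ SOD1-G93A against Plekhg5+/+ mice, 4 and 4 and 34 and 32 in Plekhg5-/- against Plekhg5+/+, 43 and 41 genes in Plekhg5-/- SOD1-G93A against Plekhg5-/-, 75 and 115 genes in Plekhg5-/- SOD1-G93A against Plekhg5+/+ SOD1-G93A, 1 and 4 transcripts and 822 and 821 genes for the averaged transgene effect, and 4 and 5 transcripts and 95 and 112 genes for the interaction. At an adjusted p under 0.1, edgeR called 7 transcripts and 1145 genes in Plekhg5+/+ SOD1-G93A against Plekhg5+/+ and 733 genes for the averaged effect. When each comparison was fitted on its own 6 libraries, edgeR called 0 transcripts and 3 genes there, 20 genes in Plekhg5-/- SOD1-G93A against Plekhg5-/- and 11 in Plekhg5-/- SOD1-G93A against Plekhg5+/+ SOD1-G93A, and Hspb8 turned to -2.42e-05 in the last. Without a filter on low counts 1 gene was called in the interaction, and with at least 10 counts in every library 0 genes in Plekhg5-/- SOD1-G93A against Plekhg5-/-, and Hspb8 had -0.00143 and -0.000793 in Plekhg5-/- SOD1-G93A against Plekhg5+/+ SOD1-G93A. With Y-linked transcripts as a covariate 412 genes were called for the averaged effect. The replicate block, although no label pairs mice by number, gave 1 transcript, Hspb1, and 417 genes for the averaged effect. It added Hspb1 to the 3 called in Plekhg5+/+ SOD1-G93A against Plekhg5+/+ (adjusted p = 0.0399 by edgeR).

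The next 3 alternatives were chosen after the data were seen. The second of them leaves out Plekhg5+/+ replicate 3 among its 4 libraries. Without Plekhg5+/+ replicates 1 and 2, edgeR called 0 transcripts and 0 genes in Plekhg5+/+ SOD1-G93A against Plekhg5+/+, 1 gene in Plekhg5-/- against Plekhg5+/+, 5 in Plekhg5-/- SOD1-G93A against Plekhg5-/- and 5 for the averaged effect. Cryab turned to 0.24 in the first, 0.14 in the second and 0.18 in the last of these and to -0.12 in the interaction, Dnajb1 to 0.00961 and Hspb1 to 0.0326 in Plekhg5-/- against Plekhg5+/+, and Hspa8 to 0.0130 in the averaged effect. Without the 4 libraries with muscle transcripts, 5 transcripts and 124 genes were called in Plekhg5+/+ SOD1-G93A against Plekhg5+/+, 2 genes in Plekhg5-/- SOD1-G93A against Plekhg5+/+ SOD1-G93A, 2 in the interaction and 5 for the averaged effect, Cryab had -0.00169 in Plekhg5-/- SOD1-G93A against Plekhg5-/-, and Hspb8 had -0.0825 in Plekhg5+/+ SOD1-G93A against Plekhg5+/+, -0.0554 in Plekhg5-/- against Plekhg5+/+, -0.0169 in the averaged effect and 0.13 in the interaction. Limma voom with sample weights called 1 transcript, Hsph1, and 282 genes in Plekhg5+/+ SOD1-G93A against Plekhg5+/+, 9 genes in Plekhg5-/- SOD1-G93A against Plekhg5-/- and 612 for the averaged effect, in which Cryab had 0.0753.

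With each library left out in turn, 0 to 7 transcripts and 2 to 771 genes were called in Plekhg5+/+ SOD1-G93A against Plekhg5+/+, 0 to 4 and 5 to 59 in Plekhg5-/- against Plekhg5+/+, 1 to 9 genes in Plekhg5-/- SOD1-G93A against Plekhg5-/-, 4 to 8 genes in Plekhg5-/- SOD1-G93A against Plekhg5+/+ SOD1-G93A, 0 to 2 and 10 to 560 for the averaged effect, and 0 to 3 and 0 to 40 in the interaction. The highest counts of transcripts came without Plekhg5+/+ replicate 3. Signs turned in Plekhg5+/+ SOD1-G93A against Plekhg5+/+ for Hspb8 (-0.0234 to 0.23) and Cryab (-0.40 to 0.00665), in Plekhg5-/- SOD1-G93A against Plekhg5-/- for Hspb8 (-0.0539 to 0.14) and Dnajb1 (-0.19 to 0.12), in Plekhg5-/- against Plekhg5+/+ for Hspb8 (-0.0575 to 0.19), in Plekhg5-/- SOD1-G93A against Plekhg5+/+ SOD1-G93A for Hspb8 (-0.0312 to 0.0640), Cryab (-0.0424 to 0.0697) and Dnajb1 (-0.00322 to 0.19), for the averaged effect in Cryab (-0.14 to 0.0630), and in the interaction for Hspb1 (-0.33 to 0.20) and Hspb8 (-0.19 to 0.0671). Ranked by CPM without division by exon length, Hspb1 moved from rank 5 to rank 9 and Dnajb1 from 8 to 5 in Plekhg5+/+ mice, while Hspa8, Hsp90aa1 and Hspa1l kept theirs.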

Other observations

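Hspa5, the Hsp70 of the endoplasmic reticulum that is also called BiP, was highest in the same libraries as the cytosolic Hsp70 genes. It stood at 651, 504 and 303 CPM in Plekhg5+/+, at 261 to 292 CPM in Plekhg5-/-, at 253 to 296 CPM in Plekhg5+/+ SOD1-G93A, and at 365, 383 and 281 CPM in Plekhg5-/- SOD1-G93A mice. Replicates 1 and 2 of Plekhg5-/- SOD1-G93A, which were next highest in Hspa5, were also the highest of the 9 libraries outside Plekhg5+/+ in Hsph1 and Hspa8. Sgk1, a kinase induced by glucocorticoids, stood at 348, 267 and 76.7 CPM in Plekhg5+/+ and at 55.4 to 246 CPM in the other 9 libraries, and Fos stood at 38.7, 31.0 and 13.4 CPM and at 10.8 to 27.6 CPM. Both genes were picked after their values were seen, and no test was made.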
